A study of Mus musculus with 8 samples.

Results

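Kinesins are motor proteins that step along microtubules. The genes described here are those of the deposited table whose symbol is Kif or Klc followed by a number, apart from Kif17. The rule took 42 of 16349 genes. Of these, 39 encode a kinesin heavy or light chain and 3 are other loci: Kif16bos, an antisense noncoding RNA, Kif4-ps, a pseudogene of Kif4, and Kif1bp, which encodes a kinesin-binding protein. RNA came from mouse spermatids in 8 libraries that form 4 groups of 2. They cover round spermatids, the first haploid stage of the male germ line, and elongating spermatids, the stage of nuclear condensation and tail growth. At each stage the mice were wild type (WT) or carried a conditional knockout (cKO) of Carm1, whose product methylates arginines and coactivates transcription. All mice were C57BL/6, none were treated, and each sample pooled cells of 8 testes, separated by centrifugal elutriation. The labels name neither the Cre driver nor the animals' age. The cKO libraries are called KO-labelled here because Carm1 itself did not fall in all of them.

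Heavy chains carry the motor domain, which hydrolyses ATP, and light chains link kinesin-1 to its cargo. Members of the kinesin-13 family do not walk but take tubulin off microtubule ends, kinesin-2 carries intraflagellar transport trains into cilia and flagella, and kinesins 5, 6, 8, 10 and 12 include motors of the mitotic and meiotic spindle. Spermatids no longer divide. They reshape the nucleus with a microtubule skirt called the manchette and build the sperm tail, and both structures use microtubule motors.

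The labels do not state whether libraries of 1 group derive from different animals, and the spread behind each p-value may thus be technical only. Recovered reads ranged from 17190962 to 23526694 per library. Levels are normalised read counts, the authors' values, and a gene is called at a limma adjusted p under 0.05. The authors' scaling and scaling to the total count differ: the median of all 15685 tested genes moved from 0.03 to -0.06 (log2) between round KO-labelled and WT libraries, from -0.07 to -0.61 in the elongating comparison, from -0.04 to -0.49 in the difference between these effects and from 0.01 to -1.42 between the WT stages when each library was scaled to its total. The 50 most abundant genes took 7.06% to 7.22% of reads in the round libraries, 31.9% in both elongating WT libraries and 34.8% and 34.9% in the elongating KO-labelled ones. Directions that total-count scaling turned are stated beside each result. In these cell preparations fewer cells of a type and less RNA per cell cannot be told apart. Carm1 was 1649 and 1686 in round WT and 1174 and 1343 in round KO-labelled libraries, a fall of log2 -0.41. In elongating spermatids it was 4308 and 4534 in WT against 8157 and 7993 in KO-labelled libraries, a rise of log2 0.87 (0.31 with total-count scaling). The deleted exons are not named in the labels, so these totals per gene do not check the deletion itself.

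The stage labels were checked against marker genes. The summed level of 15 spermatid genes was 180390 and 182720 in round WT libraries and between 2745900 and 2746200 in elongating WT. A few abundant genes weigh most in this sum: Prm2 alone had means of 38426 and 1183400. Of the 15 genes, 9 were called higher and 6 lower in elongating WT, against 41.7% and 40.2% of all genes. All 6 falls were past 2-fold, among them Spaca1 with means of 2438 and 732. Elongating libraries also held more reads of somatic marker genes than round ones, and none of these genes was at 0 in a WT group. The 17 Sertoli genes summed to 681 and 682 in round WT and to between 10767 and 10819 in elongating WT, and the 14 macrophage and leukocyte genes summed to between 147 and 174 and to between 12025 and 12035. All 17 and all 14 were called higher in elongating WT, with total-count scaling too. In elongating KO-labelled libraries these sums were lower, between 7399 and 7492 for Sertoli genes and between 5164 and 5256 for macrophage genes, with 11 of 17 and all 14 called lower. The sum of 14 Leydig, peritubular and vascular genes was higher, between 3221 and 3233 against 2225 and 2333 in elongating WT. Of them, 4 were called higher, all past 2-fold, and 2 lower, against 27.3% and 27.7% of all genes. Their share of reads was 0.00712% to 0.00729% against 0.00732% to 0.00773% in WT. In round KO-labelled libraries, where 19.4% of all genes were called higher and 12.6% lower, 9 of the 17 Sertoli genes were lower and none higher. Of these 9, 6 were past 2-fold. The 17 summed to between 437 and 445, with Fshr at 0 reads. Of the macrophage genes 6 of 14 were higher there and none lower (1 with total-count scaling), 4 of them past 2-fold, with sums between 223 and 239. Their part in the kinesin results was not tested.

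All 42 members passed the filter on low values, a level of at least 10 in at least 2 libraries. Their positions are on GRCm38, from GENCODE M21. Of the members, 10 share more than 300 exon bases with a gene on the other strand, and the library kit does not mark strand, so reads of such pairs cannot be told apart. They are Kif3c, which shares 2617 bases with 1110002L01Rik, Kif20a (1271, Cdc23), Kif2a (1229, Dimt1), Kif26b (909, Gm16564), Kif7 (877, 9330171B17Rik), Kif4 (832, Pdzd11), Klc3 (744, Ercc2), Kif1bp (494, 4933428P19Rik), Klc2 (439, AC124502.1) and Kif27 (332, Gm26555).

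Levels per kilobase of exon, the only scale on which genes can be compared, were dominated by few motors. In round WT spermatids Kif2b led with 5179 normalised counts per kilobase, followed by Kif9 with 1190, Kif27 with 983, Kif3b with 749 and Kif2c with 667. Kif2b alone made up 43.0% of the summed level per kilobase of the 39 chains. Kif2b and Kif2c encode kinesin-13 depolymerases known from the spindle, Kif9 encodes a motor of motile cilia and flagella, and Kif27 a kinesin-4 relative of Kif7 that is needed for motile cilia. In elongating WT spermatids Kif2c came first with 8287 and Kif2b second with 7303, so that these genes held 36.0% and 31.7% of the summed level. Kif27 followed with 2432. At the other end, Kif26b and Kif3c stood at 0.98 and 1.4 per kilobase in round WT, and Kif7 at 1.9 in elongating WT.

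**Figure D1:**
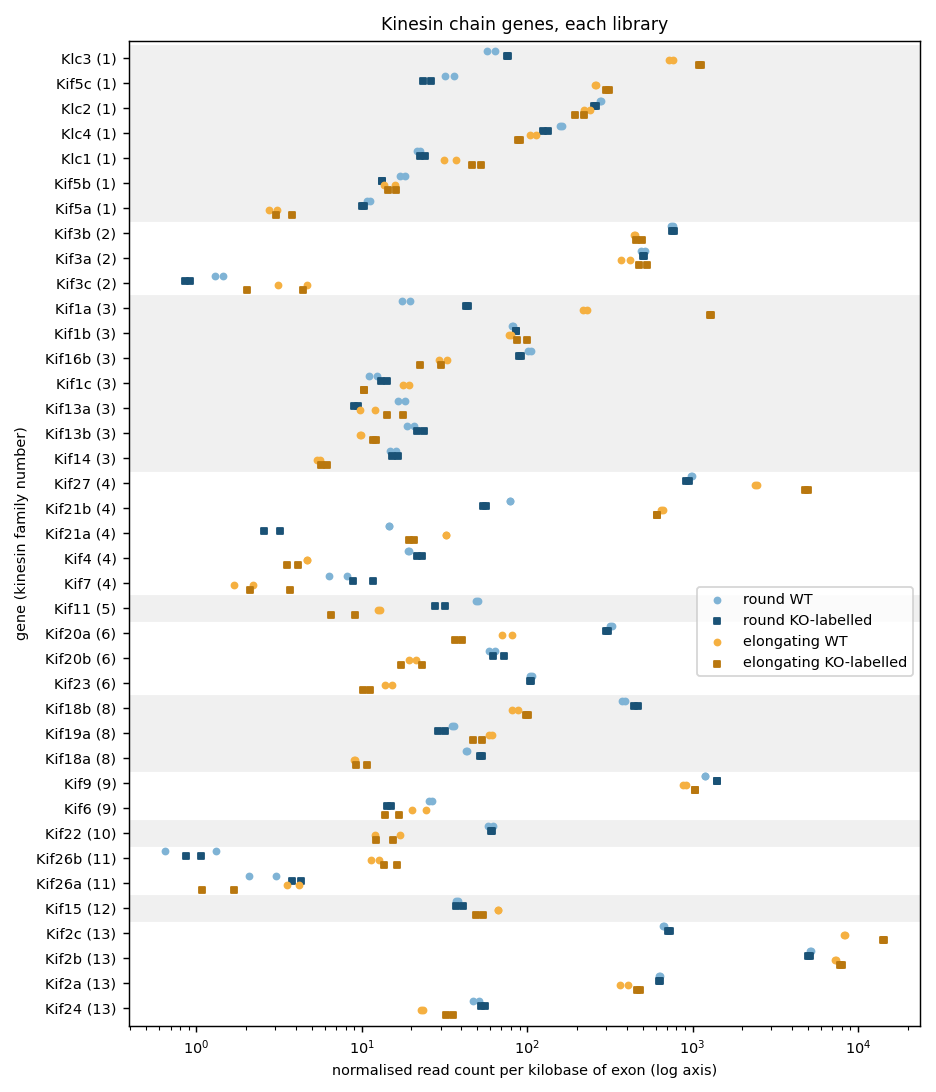
Normalised read counts per kilobase of exon (log axis) for the 39 kinesin chain genes, grouped by family, with each library as 1 point and the 4 groups in separate colours. Kif2b and Kif2c lie to the right of all other genes in elongating libraries, and Kif1a moves from 17.5 and 19.7 in round WT to 1286 and 1272 in elongating KO-labelled libraries.

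Upstream sequences are shown because the study's title names CREM, a transcription factor of spermatids that binds TGACGTCA or its core TGACG. Those given are of Kif2b and Kif2c, the highest members per kilobase in elongating WT, and of Kif5c and Klc3, from among the members that rose between the stages. They are the 250 bases before the RefSeq start (GRCm38.p6), read in the direction of the gene. Capitals mark the full site TGACGTCA, the core TGACG or GTTGCC, a short site of the RFX factors of ciliated cells, each searched on both strands. The Kif2c window (chr4:117178773-117179022, minus strand) lies in an intron of the longer GENCODE gene and holds none of these letters. The Kif2b window (chr11:91577556-91577805, minus strand) has a core 62 bases before the start. The Kif5c window (chr2:49619036-49619285, plus strand) has a full site 26 bases before it, and the Klc3 window (chr7:19404105-19404354, minus strand) an RFX site 115 bases before it. The window of Kif26b, which also rose between the stages, holds none of these letters. A link between these letters and the rises was not tested.
Kif2c: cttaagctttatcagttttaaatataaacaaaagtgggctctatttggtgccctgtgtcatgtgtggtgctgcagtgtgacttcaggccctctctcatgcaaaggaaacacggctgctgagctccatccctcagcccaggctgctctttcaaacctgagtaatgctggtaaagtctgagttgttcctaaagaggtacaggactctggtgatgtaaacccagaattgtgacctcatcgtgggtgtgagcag
Kif2b: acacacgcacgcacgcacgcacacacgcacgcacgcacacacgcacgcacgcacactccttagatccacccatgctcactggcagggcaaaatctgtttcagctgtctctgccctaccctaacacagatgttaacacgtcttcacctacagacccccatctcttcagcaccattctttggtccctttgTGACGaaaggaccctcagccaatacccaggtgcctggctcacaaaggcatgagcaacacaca
Kif5c: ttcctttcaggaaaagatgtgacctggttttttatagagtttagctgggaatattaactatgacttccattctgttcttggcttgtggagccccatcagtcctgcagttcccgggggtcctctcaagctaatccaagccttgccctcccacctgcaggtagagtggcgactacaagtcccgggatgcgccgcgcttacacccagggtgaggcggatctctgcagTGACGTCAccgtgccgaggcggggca
Klc3: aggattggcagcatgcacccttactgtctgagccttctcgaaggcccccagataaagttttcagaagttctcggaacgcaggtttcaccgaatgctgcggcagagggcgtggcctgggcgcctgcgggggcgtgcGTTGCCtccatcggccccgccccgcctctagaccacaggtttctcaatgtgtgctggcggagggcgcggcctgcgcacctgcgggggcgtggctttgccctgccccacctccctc

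RefSeq gave a window for 34 of the 42 members. The full site was in 2 of them (5.88%, Kif5c and Klc1), against 2.91% of 11902 tested genes with a window and 1.55% of all 32851 windows. The core, which the full site contains, was in 15 (44.1%), against 28.1% of the tested genes and 17.8% of all windows. The RFX site was in 8 (23.5%), against 13.3% and 10.4%. A match is a description of the letters in these windows, not a binding site. Kif1a, the member with the largest knockout difference, has a core 8 bases before 1 of its RefSeq starts and no match before the other. In the window with the core, the 77 bases nearest the start lie in an annotated exon, the core among them. The other window lies inside the GENCODE gene, outside annotated exons.

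Between round and elongating WT spermatids, most kinesin genes differed. A small group rose steeply: Kif2c, Kif26b, Klc3, Kif1a, Kif21b and Kif5c were each between 7.58-fold and 12.4-fold higher in elongating cells, and all 6 remained higher with total-count scaling. Most spindle motors fell. Of the 42 members, 15 were higher, against 41.7% of all genes tested, and 23 were lower, against 40.2%. With total-count scaling the split was 7 higher and 33 lower, against 3067 and 10799 of all 15685 genes tested. The median difference of the members was -0.39 (log2), and that of all genes 0.01. All values of the 2 stages were apart for every member: 16 lay above and 26 below, against 46.1% and 45.6% of all genes.

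Kif2c (chromosome 4, 117159639 to 117182639) was 2882 and 2941 in round WT and 35871 and 36440 in elongating WT libraries. The stages were far apart, with a log2 difference of 3.63 (SE 0.03, adjusted p = 1.4e-20), or 2.17 with total-count scaling. Klc3 encodes a kinesin light chain known from the sperm tail, where it is found with mitochondria and outer dense fibres. It was 151 and 170 in round WT and 1913 and 2004 in elongating WT, a log2 difference of 3.60 (SE 0.07, adjusted p = 1.7e-16), or 2.14 with total-count scaling. Klc3 shares 744 exon bases with Ercc2, whose own stage difference was -0.09 and not called.

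Kif1a (chromosome 1, 93015464 to 93101951), the kinesin-3 motor known for carrying synaptic vesicle precursors in neurons, was 163 and 183 in round WT and 2027 and 2146 in elongating WT. Its log2 difference was 3.58 (SE 0.06), or 2.12 with total-count scaling. Kif21b, a kinesin-4 that controls microtubule growth in neurons and lymphocytes, went from 965 and 966 to 8054 and 7830, log2 3.04 (SE 0.04) or 1.57 with total-count scaling. Kif5c, a kinesin-1 heavy chain described mainly in neurons, went from 227 and 260 to 1861 and 1834, log2 2.92 (SE 0.07) or 1.46 with total-count scaling. Each of these genes was far lower in both round libraries than in both elongating ones, which were about even. Kif26b, a kinesin-11 without motor activity, was 9.5 and 19.4 in round WT and 168 and 188 in elongating WT, log2 3.60 (SE 0.27). Its level is low, 15 and 32 recovered reads in the round WT libraries. Between the WT stages it rose as the Sertoli and macrophage sums given above did. In elongating KO-labelled libraries, where those sums were lower, Kif26b was 200 and 239, from 103 and 127 recovered reads against 130 and 130 in WT. This difference was not called, and the part of Sertoli cells and macrophages was not tested.

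The kinesin-1 family did not move as 1 unit. Kif5c, Klc3 and, on the authors' scale alone, Klc1 rose, Kif5a, Klc2 and Klc4 fell, and Kif5b was not called (log2 -0.27). Klc1, a widely expressed light chain, was 87.8 and 92.0 in round WT and 152 and 128 in elongating WT, log2 0.63, but -0.82 with total-count scaling. Kif5a, a neuronal heavy chain, had the largest fall of the family, log2 -1.86. Klc2 was the most abundant member of the family in round WT, with 1142 and 1157 against 993 and 919 in elongating WT.

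Of 11 kinesins of cell division, 9 fell, against 40.2% of all genes, and all 9 by more than 2-fold. The median of the 11 was -1.99. Kif23, a motor of the central spindle in cytokinesis, was 824 and 851 in round WT and 121 and 110 in elongating WT, log2 -2.85 (SE 0.09). Kif18a and Kif18b, which act on the ends of spindle microtubules, fell by 2.23 and 2.16. Kif18b was 1389 and 1338 in round WT and 291 and 316 in elongating WT. Kif20a, also a motor of cytokinesis, was 1416 and 1379 against 304 and 352, log2 -2.09, and Kif22, a chromosome-binding motor, was 284 and 304 against 59.3 and 83.6, log2 -2.05. Kif11, Kif4, Kif20b and Kif14 fell too, with log2 differences from -1.49 to -1.99. Pdzd11, which overlaps Kif4, rose by 1.76. The exceptions were Kif2c and, on the authors' scale alone, Kif15. Kif15, a spindle motor, was 423 and 410 in round WT and 731 and 740 in elongating WT, log2 0.82, but -0.64 with total-count scaling. Among 16 marker genes of dividing cells, all 16 fell, against 40.2% of all genes. The sum of the 16 was between 15322 and 15488 in round WT and between 3634 and 3664 in elongating WT libraries.

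Of 9 kinesins of cilia and intraflagellar transport, 3 rose and 5 fell, against 41.7% and 40.2% of all genes. With total-count scaling none rose and 8 fell, against 3067 and 10799 of 15685 tested genes. Kif27 (chromosome 13, 58287502 to 58359122) was 5086 and 5165 in round WT and 12493 and 12870 in elongating WT, log2 1.31 (SE 0.03), but -0.16 with total-count scaling. Kif19a, which shortens cilia by taking tubulin off their microtubule tips, had a log2 difference of 0.75, but -0.71 with total-count scaling. Kif3a and Kif3b form the kinesin-2 motor of intraflagellar transport. Kif3a was 1861 and 1763 against 1320 and 1495, and Kif3b 4163 and 4276 against 2483 and 2537, so both fell, by 0.37 and 0.75. Kif3c, their scarce relative, had a log2 difference of 1.39 from only 17 and 16 recovered reads in round WT, and without elongating WT replicate 1 its adjusted p was 0.0543. Kif3c was not called with total-count scaling. Its overlapping gene 1110002L01Rik fell by 0.78. Kif9 fell by 0.41, from 5100 and 5133 to 3775 and 3908.

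Within kinesin-13, Kif2b stood at 11594 and 11649 in round WT and 16271 and 16503 in elongating WT, log2 0.50, but -0.97 with total-count scaling. Kif2a, the widely expressed depolymerase, fell from 3997 and 4045 to 2333 and 2588, log2 -0.71, and Dimt1 on its other strand fell by 1.98. Kif24, which acts at the centriole, fell by 1.07. In kinesin-3, Kif1a and, on the authors' scale alone, Kif1c rose, Kif13a, Kif13b, Kif14 and Kif16b fell, and Kif1b, with 1443 and 1424 against 1412 and 1368, was not called. Kif1c had a log2 difference of 0.66, but -0.80 with total-count scaling. Kif16b, a motor of early endosomes, fell by 1.73, while Kif16bos, the noncoding gene that starts next to it on the other strand without overlapping its exons, rose by 1.89, or 0.43 with total-count scaling. Kif21a, a kinesin-4, had a log2 difference of 1.14, but -0.32 with total-count scaling. Kif7 fell by 1.79 and Kif4-ps, whose reads may be shared with Kif4, by 0.56, and Kif26a and Kif6 were not called. Without round WT replicate 1 the adjusted p of Kif4-ps was 0.0588.

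**Figure D2:**
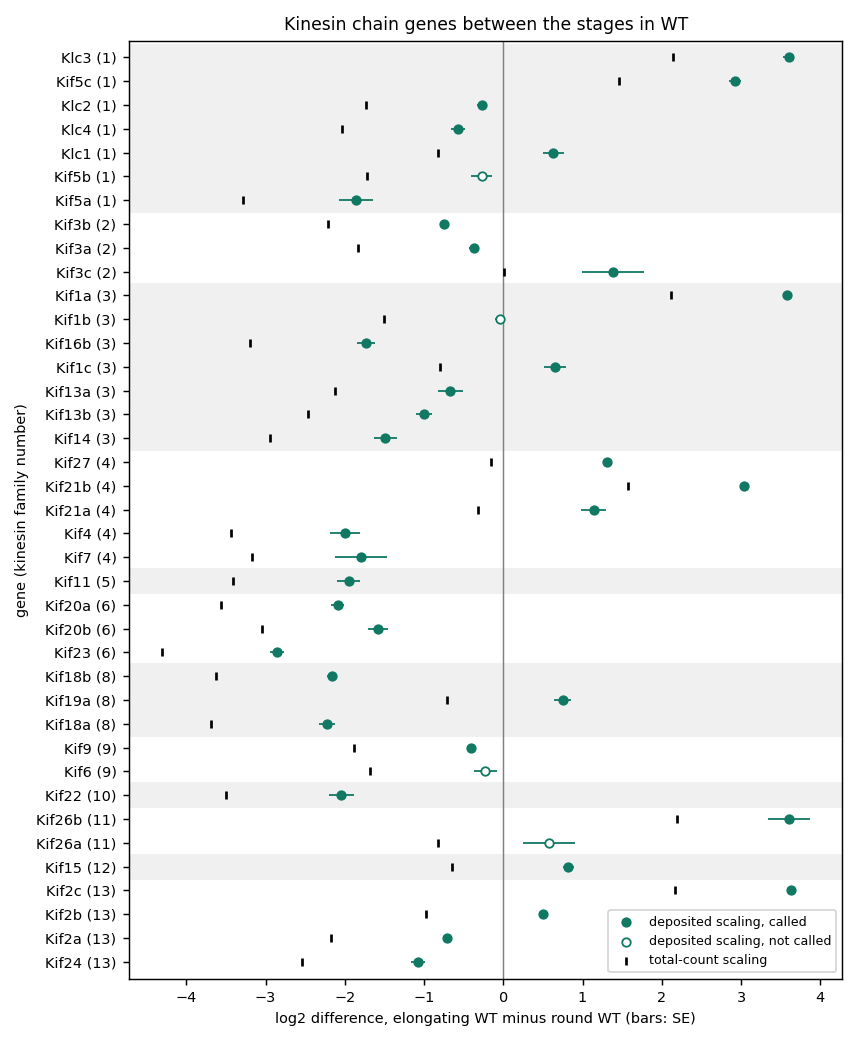
Log2 difference between elongating and round WT libraries for the 39 chain genes by family, with SE as bars, filled where called and open where not, and black ticks for total-count scaling. Kif2c, Klc3, Kif1a, Kif21b, Kif5c and Kif26b stay right of 0 under both scalings. Kif11 of kinesin-5 and Kif20a, Kif20b and Kif23 of kinesin-6 lie left of 0.

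The design then asks how kinesin genes differ when Carm1 is targeted. In round spermatids 15 members were called, most of them with differences under 2-fold. Kif1a was the member with the largest rise and Kif21a the one with the largest fall, and each was the only member past 2-fold in its direction. Of the 42 members, 7 were higher, against 19.4% of all genes, and 8 were lower, against 12.6%. With total-count scaling 5 were higher and 14 lower, against 2197 and 3059 of all 15685 genes tested. The median was 0.03, as for all genes. Libraries of the groups did not overlap for 15 members above and 17 below, against 38.1% and 32.7% of all genes.

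Kif1a was 163 and 183 in round WT and 411 and 399 in round KO-labelled libraries, so both KO-labelled values were above both WT values. The log2 difference was 1.22 (SE 0.06, adjusted p = 2.2e-09), or 1.14 with total-count scaling. Kif21a (chromosome 15, 90933276 to 91049948), which restrains microtubule growth in neurons, was 94.8 and 94.4 in WT against 16.5 and 20.8 in KO-labelled libraries. This fall of 4.89-fold, log2 -2.29 (SE 0.16, adjusted p = 7.7e-08), rested on 149 and 156 recovered reads against 26 and 37.

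The other falls came from several families. Kif13a, a kinesin-3 of endosomes, was 148 and 134 in WT against 76.9 and 72.7 in KO-labelled libraries, log2 -0.90 (SE 0.16). Kif6, a kinesin-9 of motile cilia, was 154 and 160 against 90.9 and 85.6, log2 -0.82 (SE 0.15). Kif11, the kinesin-5 that pushes spindle poles apart, was 375 and 367 against 209 and 237, log2 -0.74 (SE 0.14). Of the 11 division kinesins 3 rose, Kif11 alone fell and 7 were not called, against 19.4% of all genes called higher and 12.6% lower. Kif21b was 965 and 966 against 656 and 688, log2 -0.52 (SE 0.04), and Kif5c 227 and 260 against 186 and 167, log2 -0.46 (SE 0.07). Kif5b, the widely expressed kinesin-1 heavy chain, and Klc4 had log2 differences of -0.41 and -0.32. The call on Kif5b was lost without any 1 of the 4 round libraries (adjusted p from 0.0788 to 0.169), and that on Klc4 without round KO replicate 2, round WT replicate 1 or round WT replicate 2 (0.0554 to 0.111). DESeq2 did not call Kif5b (adjusted p = 0.0555).

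Rises other than that of Kif1a were under 1.3-fold. Klc3 was 151 and 170 in WT against 201 and 203 in KO-labelled libraries, log2 0.33 (SE 0.07), and Ercc2, which overlaps it on the other strand, rose by 0.72. Kif1bp, whose product binds KIF1 motors, was 1271 and 1258 against 1607 and 1579, log2 0.33 (SE 0.05). Kif9 was 5100 and 5133 against 6063 and 6030, log2 0.24 (SE 0.03). Kif18a (424 and 418 against 525 and 513), Kif18b (1389 and 1338 against 1585 and 1675) and Kif2c (2882 and 2941 against 3194 and 3122) had log2 differences of 0.30, 0.26 and 0.12. With total-count scaling Kif18a and Kif2c were not called. The call on Kif18a was lost without any 1 of the 4 round libraries (adjusted p 0.126 to 0.17), that on Kif18b without round KO replicate 2 or round WT replicate 2 (0.0736 and 0.0735) and that on Kif2c without round WT replicate 1 (0.066). In the round KO-labelled libraries 3 of the 16 dividing-cell genes rose and 1 fell, against 19.4% and 12.6% of all genes. The sum of the 16 was between 16466 and 16628. Kif3a, Kif3b, Kif2a, Kif2b and Kif27, which are among the 7 highest per kilobase in round WT, were not called on the authors' scale, with log2 differences between -0.07 and 0.03. Total-count scaling called Kif2b and Kif27 lower.

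In elongating spermatids the differences were wider. Kif1a rose 5.72-fold, Kif2c rose 1.73-fold and Kif27 rose by 1.00 on the log2 scale, and these 3 were the only members called higher under both scalings. Of the 42 members, 18 were higher, against 27.3% of all genes, and 9 were lower, against 27.7%. With total-count scaling the counts were 3 and 29, against 1394 and 9854 of all 15685 genes tested. Most small rises in this comparison thus depend on how the libraries are scaled. The members' median was 0.13 and that of all genes -0.07, and with total-count scaling -0.43 and -0.61. Libraries did not overlap for 22 members above and 13 below, against 35.2% and 39.5% of all genes.

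Kif1a was 2027 and 2146 in elongating WT against 12003 and 11869 in KO-labelled libraries. Both KO-labelled libraries were more than 5-fold above both WT ones, with a log2 difference of 2.52 (SE 0.06, adjusted p = 2.5e-13), or 1.95 with total-count scaling. Per kilobase it was 29th of the 39 chains in round WT, 12th in elongating WT and 4th in elongating KO-labelled spermatids, where it reached 1279. Kif27 was 12493 and 12870 in WT against 25903 and 24868 in KO-labelled libraries, log2 1.00 (SE 0.03, adjusted p = 7.4e-12), or 0.44 with total-count scaling. Kif2c was 35871 and 36440 against 63083 and 62136, log2 0.79 (SE 0.03, adjusted p = 1.3e-11), or 0.23 with total-count scaling. Beside these rises, 9 of the 15 spermatid genes were higher and 4 lower in elongating KO-labelled libraries, with a median of 0.50. The shares of all genes were 27.3% and 27.7%. Against 1394 and 9854 of 15685 tested genes, 6 of the 15 were higher and 6 lower with total-count scaling, with a median of -0.06. Their sum was between 4804500 and 4930200, or 10.8% to 10.9% of reads against 9.03% to 9.10% in WT, and its part in the kinesin values was not tested. Kif17, a kinesin-2 outside the rule, was 40276 and 40518 against 63571 and 63755.

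The remaining rises were smaller, and total-count scaling ended all 15 of them. Klc3 was 1913 and 2004 in WT against 2961 and 2901 in KO-labelled libraries, log2 0.58 (SE 0.07), or 0.02 with total-count scaling. Kif16bos was 543 and 561 against 890 and 824, log2 0.63, or 0.07 with total-count scaling. In the other 13 the direction turned with total-count scaling: Kif24, Kif13a, Klc1, Kif4-ps, Kif1bp, Kif3a, Kif2a, Kif13b, Kif1b, Kif5c, Kif18b, Kif9 and Kif2b had log2 differences from 0.55 down to 0.12 on the authors' scale, and from -0.01 to -0.45 on total counts. On that scale 9 of these 13 were called lower: Kif13b, Kif18b, Kif1b, Kif1bp, Kif2a, Kif2b, Kif3a, Kif5c and Kif9. Kif2b was 16271 and 16503 against 17959 and 17564, Kif2a 2333 and 2588 against 3080 and 2935 (Dimt1 fell by 0.78), and Kif3a 1320 and 1495 against 1891 and 1704. Kif5c was 1861 and 1834 against 2242 and 2138, and Kif9 3775 and 3908 against 4435 and 4468. In each of these 5 genes both KO-labelled values were above both WT values on the authors' scale. Single libraries also decided several calls. Kif13a lost its call without elongating KO replicate 2 or elongating WT replicate 2 (adjusted p 0.0774 and 0.0954), Kif13b and Kif4-ps without either of these or elongating WT replicate 1 (0.059 to 0.079 and 0.0571 to 0.0784), Kif5c without elongating KO replicate 1 or either WT library (0.0511 to 0.0711), and Kif18b without elongating WT replicate 1 (0.0561). DESeq2 on recovered reads did not call Kif13a, Kif13b, Kif18b and Kif4-ps (adjusted p 0.0554, 0.239, 0.104 and 0.201).

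All 9 falls kept their direction and their call with total-count scaling. Kif26a, a scarce kinesin-11, was 24.5 and 28.8 in WT against 11.6 and 7.5 in KO-labelled libraries, log2 -1.41 (SE 0.32), from 19 and 20 against 6 and 4 recovered reads. Kif20a was 304 and 352 against 174 and 158, log2 -0.97 (SE 0.08, adjusted p = 4.4e-08), and Cdc23, which shares 1271 of its exon bases on the other strand, fell by 0.59. Kif1c, a kinesin-3 of vesicle transport, was 129 and 141 against 75.6 and 75.4, log2 -0.83 (SE 0.14). Both of its KO-labelled values were well below both WT values. Kif11 was 94.1 and 96.6 against 67.9 and 49.0, log2 -0.72, and Kif21a 210 and 209 against 134 and 124, log2 -0.70 (SE 0.16). Kif6, Kif23, Kif15 and Klc4 fell by 0.54, 0.43, 0.37 and 0.28. The call on Kif6 was lost without elongating WT replicate 1 (adjusted p = 0.0738) and that on Klc4 without elongating WT replicate 2 (0.0951). DESeq2 on recovered reads did not call Kif23 and Klc4 (adjusted p 0.0693 and 0.141).

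Of the 11 division kinesins, 2 were higher (Kif2c and, on the authors' scale alone, Kif18b) and 4 lower (Kif20a, Kif11, Kif23 and Kif15) in elongating KO-labelled libraries, against 27.3% and 27.7% of all genes, with a median of -0.06, close to that of all genes. With total-count scaling 1 was higher and 10 lower, against 1394 and 9854 of all 15685 genes tested. Beside this, 13 of the 16 dividing-cell genes fell and none rose, and their sum was between 2600 and 2696. The part of dividing cells in these values was not tested. Of the 9 ciliary kinesins, 4 were higher (Kif27 and, on the authors' scale alone, Kif3a, Kif24 and Kif9) and 1, Kif6, was lower, against 27.3% and 27.7% of all genes. With total-count scaling 1 was higher and 5 lower, against the same 1394 and 9854 genes.

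**Figure D3:**
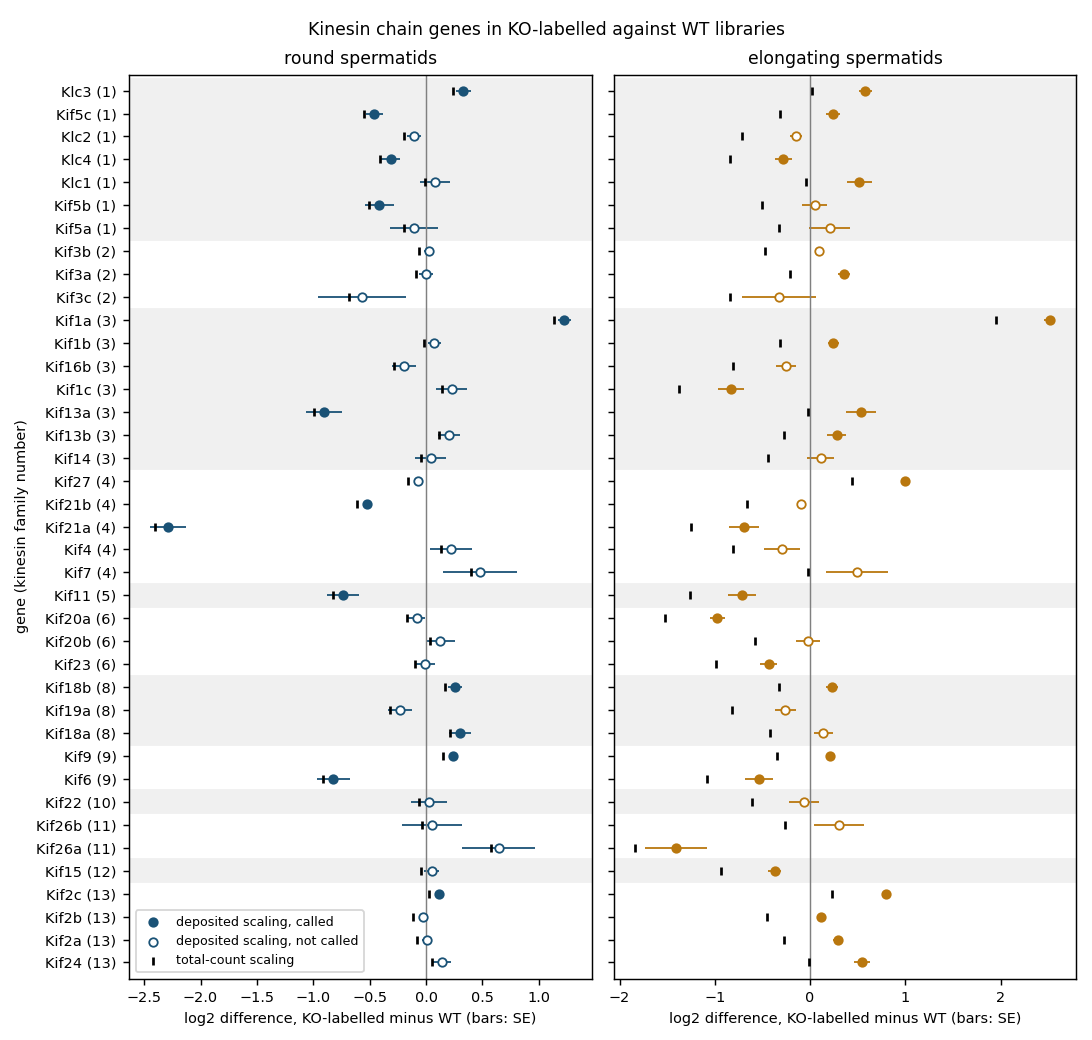
Log2 differences between KO-labelled and WT libraries in round (left) and elongating (right) spermatids for the 39 chain genes by family, with SE as bars, filled where called and open where not, and black ticks for total-count scaling. Kif1a lies farthest right in both panels, Kif21a and Kif26a farthest left in the round and elongating panels, and the ticks in the elongating panel lie left of the points for every gene.

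Whether the knockout difference itself changed with the stage was tested as an interaction. It was positive, meaning a higher value in the elongating than in the round comparison, for 14 members, against 19.3% of all genes, and negative for 5, against 17.5%. With total-count scaling the counts were 5 and 21, against 858 and 7070 of all 15685 genes tested. The 5 positive members under both scalings were Kif21a, Kif13a, Kif1a, Kif27 and Kif2c. Kif21a fell at both stages but less in elongating cells, with an interaction of 1.59 (SE 0.22), or 1.15 with total-count scaling. Kif13a fell in round cells and had an elongating difference of 0.53, or -0.02 with total-count scaling, and its interaction was 1.44 (SE 0.22), or 0.97. Kif1a rose at both stages, and by more in elongating cells (interaction 1.29, SE 0.08, or 0.82). Kif27 had a round difference of -0.07 that was not called on the authors' scale and an interaction of 1.07 (SE 0.05), or 0.60. Kif2c had 0.67 (SE 0.04), or 0.20.

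The 5 negative interactions were those of Kif26a (-2.05, SE 0.46), Kif1c (-1.06, SE 0.20), Kif20a (-0.89, SE 0.11), Kif23 and Kif15 (each -0.42), and total-count scaling kept all 5. DESeq2 gave no adjusted p for Kif26a, which the filter at 50 also left out, and did not call Kif23 (adjusted p = 0.126). Kif1c was 89.7 and 81.1 in round WT and 104 and 95.8 in round KO-labelled libraries, a round difference of 0.23 that was not called. Kif20a was 1416 and 1379 against 1332 and 1307 in round cells, also not called. Kif15 was 423 and 410 against 449 and 412 there, and in elongating cells 731 and 740 against 593 and 543. Kif23 lost its interaction call without any 1 of the 4 round libraries (adjusted p 0.0502 to 0.0766). Among the positive interactions that of Klc3 was lost without 7 of the 8 libraries, each alone, all but round WT replicate 1 (0.0566 to 0.214). Kif24 lost it without round KO replicate 1 or round WT replicate 1 (0.0682 and 0.0837), Kif4-ps without round WT replicate 1 (0.0685) and Kif2b without elongating WT replicate 1 (0.0574). DESeq2 did not call the interactions of Kif24, Kif4-ps and Klc3 (adjusted p 0.0711, 0.0672 and 0.0891).

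**Figure D4:**
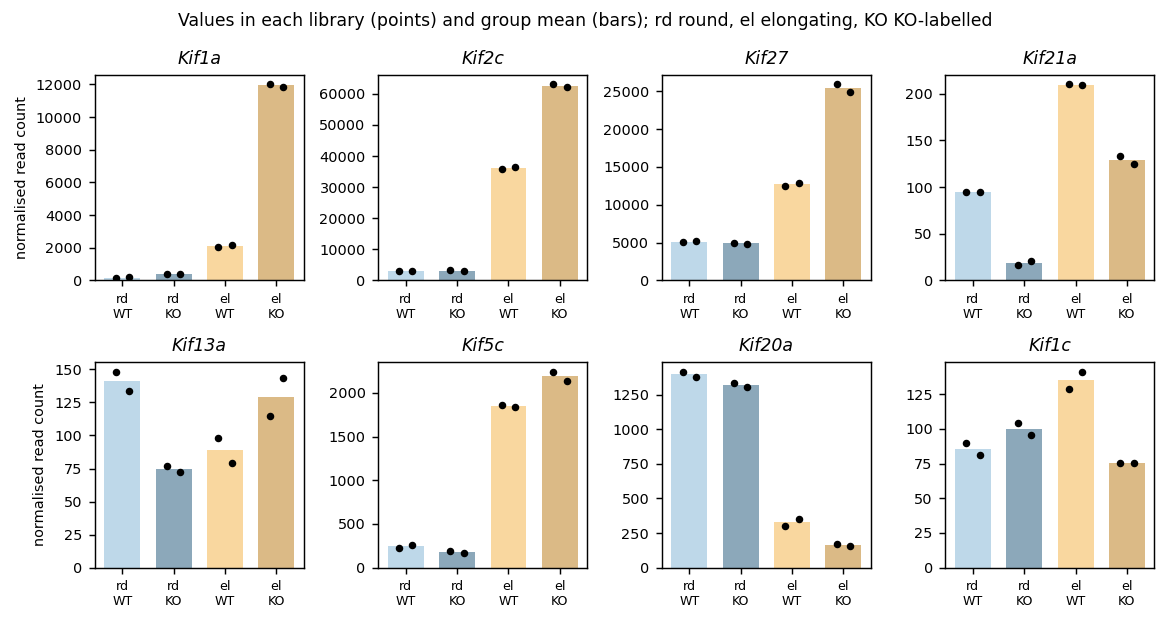
Normalised read counts of 8 kinesin genes in each library (points) and as group means (bars) for the 4 groups (rd round, el elongating), on linear axes from 0. Kif1a, Kif2c and Kif27 are highest in the elongating KO-labelled libraries, Kif21a is lowest in the round KO-labelled ones, and Kif20a and Kif1c are lowest in the elongating KO-labelled ones.

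Partners of kinesins were read from lists of related genes. On the authors' scale the shares of all genes called were 19.4% higher and 12.6% lower in the round comparison and 27.3% and 27.7% in the elongating one. Total-count scaling gave 1394 higher and 9854 lower of 15685 tested genes in the elongating comparison. Of 13 cargo adaptors, 5 rose and 1 fell in round KO-labelled libraries, and 2 rose and 3 fell in elongating ones, where with total-count scaling 1 rose and 12 fell. Mapk8ip1, whose JIP1 product ties cargo to kinesin-1 light chains, had means of 437 and 639 in round WT and KO-labelled libraries and of 1369 and 3112 in the elongating ones. Its log2 differences were 0.55 and 1.18, or 0.46 and 0.62 with total-count scaling. Plekhm2, which links lysosomes to kinesin-1, fell by 0.73 in elongating KO-labelled cells. Kifap3, which binds the Kif3a and Kif3b heavy chains, belongs to 6 measured kinesin-14 and other genes outside the symbol rule. Its mean was 11305 in elongating WT against 16457 in the KO-labelled libraries of that stage, log2 0.54, but -0.02 with total-count scaling.

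Motors and tracks that work with or against kinesins showed mixed directions. On the authors' scale the same shares of all genes, 19.4% and 12.6% in round and 27.3% and 27.7% in elongating cells, stand behind these counts. Behind the total-count values in elongating cells stand 1394 higher and 9854 lower of 15685 tested genes. Of 22 cytoplasmic dynein and dynactin genes, 8 rose and 2 fell in round KO-labelled libraries, and 7 rose and 6 fell in elongating ones, where with total-count scaling 1 rose and 19 fell. Dynll2, a dynein light chain, rose by 0.79 in elongating cells and Dynlrb2, another light chain, fell by 0.74. Of 25 intraflagellar transport and BBSome genes, 8 rose and 2 fell in round cells, and 12 rose and 4 fell in elongating ones, where with total-count scaling 2 rose and 19 fell. Ift46, a subunit of the transport train, rose by 1.09 and 1.04 at the 2 stages, and Ift43 fell by 1.03 in elongating cells. Between WT stages 21 of these 25 fell, against 40.2% of all genes. With total-count scaling all 25 fell, against 10799 of 15685 tested genes. Of 20 manchette genes, 8 rose and 6 fell in round KO-labelled libraries and 8 rose and 5 fell in elongating ones, where with total-count scaling 2 rose and 16 fell. Katnal2, a relative of the microtubule-severing enzyme katanin, fell by 1.00 in elongating cells.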

How the data were processed

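Poly A libraries were made with a TruSeq RNA v2 kit that does not mark strand, per the labels' protocols. Tools named in the submitters' processing notes are TopHat2 2.0.10, HTSeq 0.6.0, CASAVA 1.8.2 and DESeq 1.16.0, with build mm10 (GRCm38). For the counting, the strand setting is not given in the sources used here. Values in the authors' deposited table are a normalized signal for every gene in every library. Divided by the column's smallest non-zero value, 100% of them were whole reads (tolerance 1e-06). In all groups the paired libraries differed by more than sampling noise (chi-square per gene from 1.39 to 2.39) and were counted separately.

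Tests used limma 3.58.1 under R 4.3.3, with a trend, on log2(value + 1), over the 15685 genes that reached 10 in 2 or more libraries, in 1 model of 8 libraries with a mean for each of 4 groups, which leaves 4 residual degrees of freedom. Calls are at a two-sided Benjamini-Hochberg adjusted p under 0.05 over all genes tested. Differences are on the scale of log2(value + 1) and so understate changes of low genes. Alternatives were pseudocounts of 0.1 and 10, no filter, a filter at 50, edgeR 4.0.16 and DESeq2 1.42.0 on recovered reads, total-count scaling, library sizes without the 50 most abundant genes, only the 4 libraries compared, the replicate number as a block and leaving out each library. The fitting code was tested on simulated data. Members and lists were chosen with earlier results of these data known. Values in every library are given for members with a mean of at least 1000 in a group and for the 5 largest rises and 5 largest falls per contrast among called members whose groups do not overlap; of other lists, up to 4 called genes per knockout contrast could be named.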

Additional observations from a re-analysis of the deposited data

Results flagged for a closer look

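The knockout differences of 19 kinesin members differed between the stages by the interaction test. Each value is the elongating minus the round difference (log2) on the authors' scale. The negative ones were -2.05 for Kif26a, -1.06 for Kif1c, -0.89 for Kif20a, -0.42 for Kif23 and -0.42 for Kif15. The positive ones were 1.59 for Kif21a, 1.44 for Kif13a, 1.29 for Kif1a, 1.07 for Kif27, 0.80 for Kif4-ps, 0.70 for Kif5c, 0.67 for Kif2c, 0.49 for Kif16bos, 0.42 for Kif21b, 0.41 for Kif24, 0.35 for Kif3a, 0.28 for Kif2a, 0.25 for Klc3 and 0.14 for Kif2b. Those of Kif21b, Kif24, Kif3a, Kif2a, Klc3 and Kif2b turned negative with total-count scaling. Of the 14, Kif21a, Kif13a, Kif1a, Kif27 and Kif2c were also called with total-count scaling.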

How the results depend on the processing

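Pseudocounts, filters, edgeR, the fit on only the 4 libraries compared and leaving out single libraries kept every count of called members within 1.5 times. Scaling did not. With total-count scaling 14 members were lower in the round comparison, 3 higher and 29 lower in the elongating one, 5 and 21 in the interaction and 7 higher between WT stages. The counts over all genes moved too, to 1394 higher and 9854 lower of 15685 in the elongating comparison. With library sizes that leave out the 50 most abundant genes the elongating counts were 3 and 27, those of the interaction 6 and 18, and 8 were higher between WT stages. Over all 15685 genes this scaling gave 1668 higher and 9279 lower in the elongating comparison. The interaction had 1069 and 6352 of all genes, and 3918 were higher between WT stages. DESeq2 called 3 negative interactions, did not call Kif23 and gave no adjusted p for Kif26a. Turned to negative by total-count scaling in the elongating comparison were Kif13a (-0.025), Kif13b (-0.28), Kif18b (-0.33), Kif1b (-0.32), Kif1bp (-0.13), Kif24 (-0.013), Kif2a (-0.27), Kif2b (-0.45), Kif3a (-0.21), Kif4-ps (-0.11), Kif5c (-0.32), Kif9 (-0.35) and Klc1 (-0.042). Turned to negative by total-count scaling in the interaction were Kif21b (-0.049), Kif24 (-0.062), Kif2a (-0.19), Kif2b (-0.33), Kif3a (-0.12) and Klc3 (-0.22). Turned to negative by total-count scaling between WT stages were Kif15 (-0.64), Kif19a (-0.71), Kif1c (-0.80), Kif21a (-0.32), Kif27 (-0.16), Kif2b (-0.97) and Klc1 (-0.82). Turned to negative without the 50 most abundant genes in the elongating comparison were Kif13b (-0.21), Kif18b (-0.27), Kif1b (-0.26), Kif1bp (-0.061), Kif2a (-0.21), Kif2b (-0.38), Kif3a (-0.15), Kif4-ps (-0.043), Kif5c (-0.26) and Kif9 (-0.29). Turned to negative without the 50 most abundant genes in the interaction were Kif2a (-0.13), Kif2b (-0.27), Kif3a (-0.06) and Klc3 (-0.16). Turned to negative without the 50 most abundant genes between WT stages were Kif15 (-0.20), Kif19a (-0.27), Kif1c (-0.35), Kif2b (-0.52) and Klc1 (-0.38).

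Replicate numbers share only a number: replicate differences correlated by between -0.01 and 0.03 across pairs of groups. With a replicate block the calls (higher and lower) were 7 and 8 in the round comparison, 18 and 10 in the elongating one, 14 and 5 in the interaction and 15 and 23 between WT stages. The cause of calls that edgeR, DESeq2 or a left-out library ended was not tested. Uncalled members that a left-out library brought under the threshold included Kif16b in the round comparison (adjusted p 0.0324 without elongating KO replicate 1 and 0.0308 without elongating KO replicate 2), and in the elongating one Kif16b, Kif18a, Kif7 and Klc2 without elongating KO replicate 1 (0.0002, 0.0488, 0.0392 and 0.00438), Kif3b and Kif19a without elongating KO replicate 2 (0.00661 and 0.0241) and Kif21b without round KO replicate 1 or round KO replicate 2 (0.0344 and 0.0347). Depth limits Kif26a, Kif26b, Kif3c and Kif7, each with under 100 recovered reads in every round library. It also limits results of other members in elongating cells. In elongating WT libraries Kif5a had 15 and 15 recovered reads and Kif4 had 20 and 18. In elongating KO-labelled ones Kif11 had 35 and 26, Kif1c 39 and 40, and Kif23 46 and 43.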
